A study of Mus musculus with 13 samples.

Results

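The genes of sterol and fatty acid synthesis were followed in mouse liver through 6 weeks of TAA. TAA usually stands for thioacetamide, a toxin that hepatocytes activate. A list of 33 genes was matched by symbol to the annotation of an Illumina MouseRef-8 v2.0 BeadArray. Of these 33 genes, 30 had at least 1 probe, 42 probes in all among 25697 on the array, and all 30 passed the detection filter that left 8027 genes for testing. Acat2, Mvk and Fdft1 had no probe, so their expression is not analysed here. The list has 3 arms. The cholesterol arm holds 18 enzymes, 15 of them measured, the fatty acid arm holds 10, and the regulators and sterol transfer genes number 5.

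RNA came from total liver of female C57BL/6 mice. There were 3 naive, that is untreated, arrays, 3 after 1 week of TAA, 4 after 4 weeks and 3 after 6 weeks. The arrays carry letters within each group. Dose, route, dosing scheme and age are not given in the sources used here, nor is it said whether samples were separate animals or pools, so the p-values measure only the spread between these samples. In bulk tissue, fewer cells of a type and less RNA per cell cannot be told apart.

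Hepatocytes build cholesterol from acetyl-CoA through mevalonate, the isoprenoid diphosphates, squalene and lanosterol, and the last enzymes trim and rearrange the sterol ring. They build fatty acids from the same acetyl-CoA, and elongases and desaturases then lengthen and unsaturate the chains. The transcription factor SREBP-2, from Srebf2, chiefly drives genes of the cholesterol arm, and SREBP-1c, from Srebf1, chiefly those of the fatty acid arm. SCAP escorts both from the endoplasmic reticulum for cleavage when sterol is low, and the INSIG proteins hold them back when sterol is high.

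SREBPs bind sterol regulatory elements in promoters, usually beside sites for NF-Y (the CCAAT box) and Sp1 (the GC box). Promoters were taken from RefSeq on GRCm38.p6 for the 27 of 33 genes with an entry, and the 250 bases before each start were searched on both strands for TCACNCCAC, CCAAT and GGGCGG. A gene with more than 1 start was counted once, as holding a motif if any of its promoters did. The first was found in 1 of 15 cholesterol arm genes, Hmgcs1, in 0 of 8 fatty acid arm genes and in 1.22% of all 27025 genes. CCAAT was found in 14 of 15 cholesterol arm genes, 4 of 8 fatty acid arm genes and 37.5% of all genes. GGGCGG was found in 14 of 15, in 4 of 8 and in 35.4%. These 15 cholesterol arm genes are not the 15 measured ones, since they include Acat2 and Mvk and lack Fdps and Sqle. Of the 13 that were also measured, 1 held the first motif, 13 held CCAAT and 12 held GGGCGG. Of the 4 regulators with an entry, 0 held the first motif and all 4 held each of the others. Median GC content was 62.8% in the cholesterol arm and 61.5% in the fatty acid arm, against 52.4% over all genes, and no comparison matched for it was made. A match describes the letters only.

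The following promoters, 200 bases ending at the base before the start and written 5′ to 3′ along the gene, belong to genes on which the results turn. Capitals mark the 3 motifs, with ATTGG and CCGCCC being CCAAT and GGGCGG on the opposite strand. Hmgcs1 carries the TCACNCCAC match and was low at 1 week and high later, and Lss was high later.
Hmgcs1, chr13:119690151-119690350, plus strand: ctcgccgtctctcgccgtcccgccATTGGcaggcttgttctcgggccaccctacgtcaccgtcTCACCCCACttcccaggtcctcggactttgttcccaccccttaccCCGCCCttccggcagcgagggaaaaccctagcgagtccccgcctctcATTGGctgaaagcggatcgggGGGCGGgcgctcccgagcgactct
Lss, chr10:76531405-76531604, plus strand: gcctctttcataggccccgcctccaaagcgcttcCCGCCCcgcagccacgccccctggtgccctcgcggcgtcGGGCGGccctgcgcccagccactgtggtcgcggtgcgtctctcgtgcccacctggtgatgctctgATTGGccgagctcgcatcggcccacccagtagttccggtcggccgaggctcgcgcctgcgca
Tm7sf2 and Ebp were below naive at every time.
Tm7sf2, chr19:6067851-6068050, minus strand: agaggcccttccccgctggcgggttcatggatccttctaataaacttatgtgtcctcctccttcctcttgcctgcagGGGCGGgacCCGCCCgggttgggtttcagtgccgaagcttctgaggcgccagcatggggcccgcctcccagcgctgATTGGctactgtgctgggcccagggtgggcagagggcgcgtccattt
Ebp, chrX:8193513-8193712, minus strand: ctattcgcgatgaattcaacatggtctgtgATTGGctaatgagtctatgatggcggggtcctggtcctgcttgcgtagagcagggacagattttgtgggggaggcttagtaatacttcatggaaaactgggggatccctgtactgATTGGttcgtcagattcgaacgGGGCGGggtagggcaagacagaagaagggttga
Acly and Elovl5 are fatty acid arm genes, of which Acly rose at 6 weeks and Elovl5 fell at 1 week.
Acly, chr11:100528001-100528200, minus strand: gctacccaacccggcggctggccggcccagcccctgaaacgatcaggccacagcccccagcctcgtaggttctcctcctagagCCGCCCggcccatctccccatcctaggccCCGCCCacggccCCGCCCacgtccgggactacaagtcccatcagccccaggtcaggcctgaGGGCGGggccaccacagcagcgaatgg
Elovl5, chr9:77917165-77917364, plus strand: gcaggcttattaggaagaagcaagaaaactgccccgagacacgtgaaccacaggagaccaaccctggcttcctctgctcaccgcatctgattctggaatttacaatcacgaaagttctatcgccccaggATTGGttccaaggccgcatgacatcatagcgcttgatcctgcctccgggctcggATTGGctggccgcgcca
The TCACNCCAC match of Hmgcs1 begins 137 bases before the start. CCAAT lies on the opposite strand in the 5 windows that hold it, and Acly holds GGGCGG on either strand but no CCAAT. No matches overlap in these windows.

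The arrays differed in brightness. Their mean raw intensity lay between 472 and 587 for naive liver, 177 and 479 after 1 week, 456 and 611 after 4, and 195 and 273 after 6 weeks, with 1-week array C the dimmest. On 1-week arrays B and C and the 6-week arrays, 7 genes outside the list read at least 1.12 log2 units higher than on the other 8 arrays. These array sets were read from the data, and a fit with the set as a term is given beside the calls against naive that it ends. It leaves 1-week array A alone against naive, and for 6 weeks against naive it rests on the 1-week arrays. The summed intensity of the 6 tested hepatocyte markers ran from 54211 to 75882, most of it from Ttr, at a log2 intensity of 14.31 to 15.01, and Apoa1, at 14.31 to 14.92. The Alb probe read 5.25 to 6.72 on all arrays, Serpina1e read 11.39 to 13.12 in naive liver and 7.93 to 10.54 at 4 weeks, and Tat was detected on none. The 5 measured adipocyte markers were detected on 0 arrays, and of the 4 measured pancreas markers 3 were detected on none. The 6 tested markers of hepatocytes around the central vein all fell at 1 and 6 weeks, and 5 fell at 4 weeks, their summed intensity being 38350 to 46831 in naive liver, 13001 to 16116 after 1 week, 14231 to 23346 after 4, and 12953 to 14712 after 6 weeks. Of 5 tested stellate cell markers 1 rose at 1 week, 3 at 4 weeks and 4 at 6 weeks, their summed intensity being 253 to 330 in naive liver, 267 to 441 after 1 week, 552 to 1730 after 4, and 723 to 1361 after 6 weeks. Of all genes 25.6%, 28.2% and 38.8% were called at 1, 4 and 6 weeks, by the test described below. At 6 weeks 2 of 3 tested cholangiocyte markers rose and 2 of 3 tested endothelial markers fell. Of 3 tested markers of hepatocytes around the portal vein 1 fell at 4 weeks and 1 at 6 weeks. The part of these cell types in the results below was not tested.

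All values below are log2 intensities after background correction and quantile normalization, so a change is measured against the rest of the genes on that array. Each difference carries its standard error (SE) from 1 limma model of the 13 arrays, with n = 3 arrays in each group and 4 at 4 weeks. A gene was called, and is said to rise or fall, when its p-value adjusted over all 8027 genes was under 0.05. The comparisons with naive share the naive arrays.

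After 1 week of TAA most enzymes of the cholesterol arm were lower than in naive liver. Of 15 tested, 11 fell and 0 rose, against 25.6% of all genes called, 12.3% lower and 13.3% higher. Their median change was -0.86, and that of all genes 0.02. The arrays of the groups did not overlap for 13 of 15, against 36.3% of all genes. In the fatty acid arm 2 of 10 fell and 0 rose, with a median of -0.26. Idi1 was the cholesterol arm gene with a positive change, 0.27 ± 0.29 (adjusted p = 0.533). With the 2 groups fitted alone 6 of the 15 were called, namely Hmgcs1, Pmvk, Mvd, Tm7sf2, Msmo1 and Hsd17b7, and 0 of 10 in the fatty acid arm, against 13.7% of all genes in that fit. With the array set as a term 6 of the 15 were called, namely Hmgcs1, Pmvk, Fdps, Msmo1, Hsd17b7 and Dhcr7, and again 0 of 10, against 14.3% of all genes. The calls of Mvd, Cyp51, Tm7sf2, Nsdhl, Ebp, Acss2 and Elovl5 ended in this second fit (adjusted p from 0.0576 to 0.584). On 1-week array A alone, 14 of the 15 cholesterol arm genes lay below the naive mean, as on B and on C.

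After 4 weeks the calls in the cholesterol arm went both ways. Hmgcs1, Sqle (by its tested probe) and Lss rose, Tm7sf2 and Ebp fell and 10 of 15 were not called, which is 33.3% called against 28.2% of all genes, 15.2% higher and 12.9% lower. The median of the arm was 0.04, that of all genes 0.03, and 7 of 15 did not overlap, against 45.4% of all genes. These shares were close to those of all genes, among which calls also went both ways. In the fatty acid arm Fasn fell and the other 9 were not called. Without naive array A or naive array B, 2 cholesterol arm genes were called, against 22.5% and 19.9% of all genes. Without naive array C, 4-week array C or 4-week array D, 3 were called, against 20.2%, 21.4% and 24.8%. Scaling to 1 median in place of quantiles left 3, 1 higher and 2 lower, against 27.8%, and turned Hmgcs1 to -0.26.

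After 6 weeks Hmgcs1, Fdps, Lss and the tested probe of Sqle rose and Tm7sf2 and Ebp fell, 6 of 15 against 38.8% of all genes called, 22.4% higher and 16.4% lower. The median was -0.03, that of all genes 0.09, and 6 of 15 did not overlap, against 52.7% of all genes. Acly of the fatty acid arm rose and the other 9 were not called. The 40% called in the cholesterol arm was close to the share of all genes, and the 10% in the fatty acid arm was below it. With the array set as a term 0 members of either arm were called, against 11.6% of all genes. Median scaling called 3 in the cholesterol arm, 1 higher and 2 lower, and in the fatty acid arm 1 lower (Elovl5) in place of 1 higher. That scaling called 43.3% of all genes. Without naive array B, 3 cholesterol arm genes were called, against 30.7% of all genes.

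**Figure D1:**
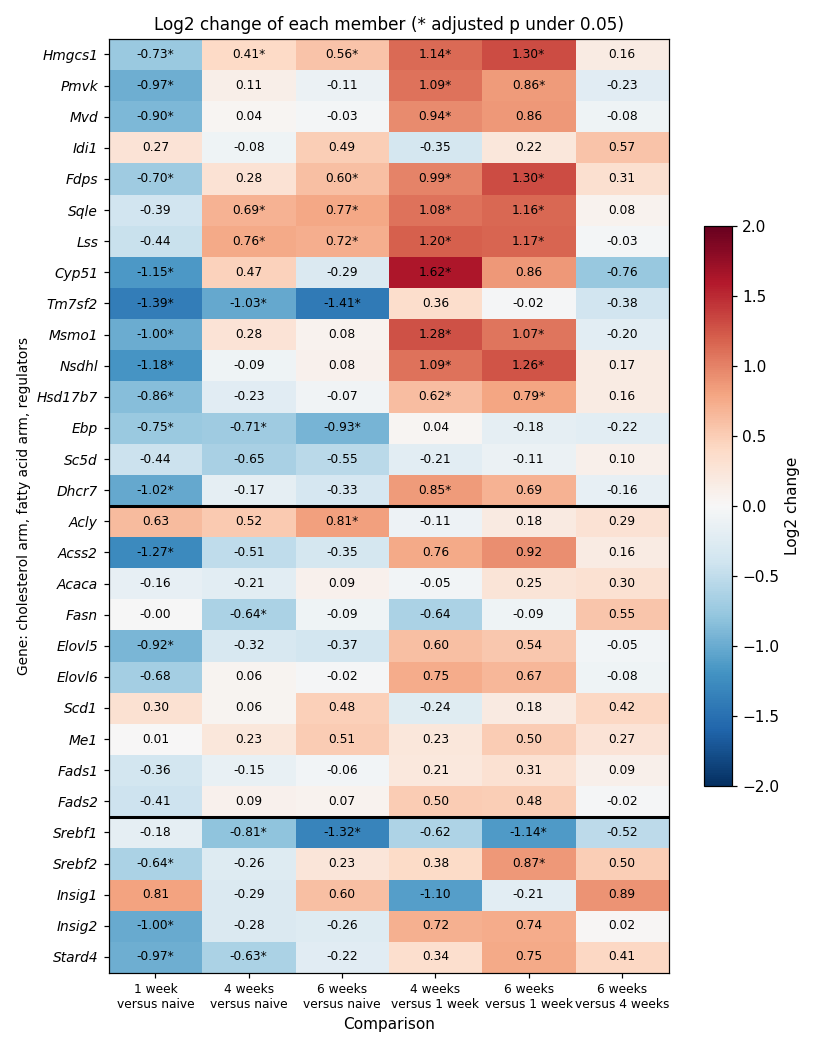
Log2 change of each of the 30 measured genes (rows, in 3 blocks by arm) in each of the 6 comparisons (columns), with red for higher and blue for lower in the first-named group and an asterisk where the adjusted p was under 0.05. The cholesterol arm is blue at 1 week against naive in 14 of 15 rows and red in 13 of 15 for 4 weeks against 1 week.

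Between weeks, the enzymes that were called all belonged to the cholesterol arm. From 1 to 4 weeks 11 of its 15 genes rose and 0 fell, against 8.81% of all genes called, 4.4% higher and 4.41% lower, with a median of 0.99 and no overlap for 9 of 15 (21.7% of all genes). From 1 to 6 weeks 8 of 15 rose, against 9.18% of all genes called, 5.28% higher and 3.9% lower, with a median of 0.86 and no overlap for 9 (23.4% of all genes). In the fatty acid arm 0 of 10 were called in either comparison, with medians of 0.22 and 0.40. Between 4 and 6 weeks 0 of the 30 genes were called by limma on the tested probe, while further probes of Sqle and Nsdhl, given below, were called. Of all genes 5.31% were called, 2.22% higher and 3.09% lower, and 24.6% were without overlap. At an unadjusted p under 0.05 there were 6 of 30, against 21.8% of all genes. Median scaling called 3 of 30, the fit of both groups alone 2 and the mean of all probes 2. Of all genes these settings called 10.7%, 9.49% and 7.3%. From 1 to 4 weeks, 7 of 30 genes were called in a fit of both groups alone, against 4.65% of all genes in that fit. With the array set as a term this comparison rests on 1-week array A alone. Most of the 11 calls ended there, as did most calls over all genes. From 1 to 6 weeks both groups alone gave 6 of 30, against 2.11% of all genes. The calls of Hmgcs1, Fdps and Msmo1 held under each of the 22 alternatives in both comparisons, and that of Lss from 1 to 6 weeks. From 1 to 4 weeks the call of Mvd ended without naive array B, 1-week array A or B, or 4-week array A, B or D (adjusted p up to 0.0971). That of Hsd17b7 ended without naive array A or B, 1-week array A or B, any 4-week array or 6-week array C (adjusted p up to 0.115). That of Dhcr7 ended without naive array B or C, 1-week array A or C, any 4-week array, or 6-week array B or C (adjusted p up to 0.144). From 1 to 6 weeks the call of Pmvk ended without 1-week array A or C or any 6-week array, and that of Hsd17b7 without 1-week array A or 6-week array A or C (adjusted p up to 0.0789 and 0.094).

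Hmgcs1, the cytosolic synthase that makes HMG-CoA for the mevalonate step, had the smallest spread of the cholesterol arm, a within-group SD of 0.121. Its naive arrays A, B and C read 14.00, 14.10 and 14.20, and the 1-week arrays 13.16, 13.57 and 13.36. At 4 weeks arrays A to D read 14.42, 14.57, 14.43 and 14.60, and at 6 weeks 14.68, 14.65 and 14.65. Every 1-week array was below every naive array and every later array above it. The fall at 1 week was 0.73 ± 0.16 (adjusted p = 0.00386), and its intensity thus fell by 39.9%. The rise was 0.41 ± 0.15 at 4 weeks (adjusted p = 0.0495) and 0.56 ± 0.16 at 6 weeks (adjusted p = 0.0106). The 4-week call did not hold without any 1 of the naive, 4-week or 6-week arrays (adjusted p from 0.0562 to 0.149), and median scaling turned the value to -0.26. The 6-week call was lost with the array set as a term, where the change was 0.26, and under median scaling, where it was 0.44 (adjusted p = 0.118).

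Pmvk, the phosphomevalonate kinase, read 8.91, 9.18 and 8.64 in naive liver and 7.90, 8.40 and 7.51 at 1 week, and fell by 0.97 ± 0.22 (adjusted p = 0.00577). Its changes at 4 and 6 weeks, 0.11 and -0.11, were not called. Mvd, the decarboxylase of the following step, read 8.22, 8.52 and 8.90 in naive liver and 7.53, 7.48 and 7.94 at 1 week, a fall of 0.90 ± 0.28 (adjusted p = 0.0282). The groups did not overlap for either gene, though Mvd lost its call without naive array B or C or 1-week array A or B (adjusted p up to 0.116), and without the detection filter (adjusted p = 0.0632). Idi1, the isomerase that interconverts the isoprenoid diphosphates, was called in 0 of 6 comparisons, and its within-group SD was 0.404.

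Fdps, the synthase of farnesyl diphosphate, read 12.78, 12.70 and 12.73 in naive liver and 11.85, 12.39 and 11.86 at 1 week. The later arrays read 13.27, 13.01, 12.76 and 13.04 at 4 weeks and 13.49, 13.13 and 13.39 at 6 weeks. Its 3 naive arrays had an SD of 0.0403 and lay above all 1-week arrays and below all 6-week arrays. Fdps fell by 0.70 ± 0.19 at 1 week (adjusted p = 0.0149) and rose by 0.60 ± 0.19 at 6 weeks (adjusted p = 0.0223). The 6-week call ended without naive array B or C, or 6-week array A or C (adjusted p from 0.056 to 0.0772), and under median scaling, where the change was 0.10.

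Sqle, the epoxidase that commits squalene to sterol, and Lss, which closes the ring to lanosterol, did not pass the test at 1 week, with changes of -0.39 ± 0.22 and -0.44 ± 0.22 (adjusted p = 0.207 and 0.162). Lss read 8.93, 8.75 and 8.65 in naive liver, 8.24, 8.74 and 8.01 at 1 week, 9.41, 9.17, 9.63 and 9.91 at 4 weeks and 9.51, 9.30 and 9.69 at 6 weeks. Every later array of Lss was above every naive array, while 1-week array B lay among the naive ones. Lss rose by 0.76 ± 0.21 at 4 weeks and by 0.72 ± 0.22 at 6 weeks (adjusted p = 0.0146 and 0.0196), and the calls ended without naive array C (adjusted p = 0.0622 and 0.0677). At 6 weeks the Lss call also ended without naive array B or 6-week array C (adjusted p = 0.0542 and 0.0735).

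The tested probe of Sqle read 10.24, 10.25 and 10.88 in naive liver, 11.15, 11.23, 10.90 and 11.32 at 4 weeks and 11.57, 10.85 and 11.25 at 6 weeks. It rose by 0.69 ± 0.20 and 0.77 ± 0.22 (adjusted p = 0.0201 and 0.0122). At 4 weeks the groups did not overlap, and at 6 weeks array B lay just below naive array C. Its calls ended without naive array A or B (adjusted p from 0.0517 to 0.0925) and under median scaling, at 0.46 and 0.40. The 4-week call of Sqle also ended without 4-week array D (adjusted p = 0.0527) and the 6-week call without 6-week array A (adjusted p = 0.0609), and a further probe read otherwise, as described with the probes below.

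Cyp51, the lanosterol demethylase, had the largest difference between weeks among the tested probes of the 30 genes. Its naive arrays read 9.95, 10.07 and 10.14, the 1-week arrays 9.80, 8.85 and 8.05, the 4-week arrays 10.47, 10.52, 10.40 and 10.69 and the 6-week arrays 9.88, 9.70 and 9.71. The 1-week arrays were themselves 1.75 log2 units apart, with A near naive and C lowest. Cyp51 fell by 1.15 ± 0.30 at 1 week (adjusted p = 0.0134) and rose by 1.62 ± 0.28 from 1 to 4 weeks (adjusted p = 0.0059). With the array set as a term the rise was not called. There it rests on 1-week array A, at 9.80 against 10.40 to 10.69 at 4 weeks. On 1-week array A alone, the array set fit, the change from naive was -0.25 (adjusted p = 0.584). In that fit the change of Cyp51 from naive at 6 weeks was 1.06 (adjusted p = 0.0631), against -0.29 without the term (adjusted p = 0.478).

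Tm7sf2, a sterol reductase that acts on the product of CYP51, was lower at all 3 times. It read 8.20, 8.34 and 8.32 in naive liver, 7.20, 7.02 and 6.48 at 1 week, 7.68, 7.37, 6.58 and 7.39 at 4 weeks and 7.13, 6.71 and 6.78 at 6 weeks. No TAA array reached the lowest naive array. Tm7sf2 fell by 1.39 ± 0.26, 1.03 ± 0.24 and 1.41 ± 0.26 (adjusted p = 0.00164, 0.00555 and 0.000728). The 1-week and 6-week calls ended with the array set as a term, at -1.09 and -0.96 (adjusted p = 0.0576 and 0.181). Ebp, the isomerase that moves the ring double bond, was also below naive at each time, with 11.92, 11.72 and 11.70 in naive liver, 10.97, 11.57 and 10.56 at 1 week, 11.25, 11.13, 10.76 and 11.14 at 4 weeks and 10.79, 10.78 and 10.98 at 6 weeks. All its TAA arrays lay below all its naive arrays. Ebp fell by 0.75 ± 0.22, 0.71 ± 0.21 and 0.93 ± 0.22 (adjusted p = 0.0249, 0.0204 and 0.00484). Its 1-week call ended without any naive array, 1-week array A or 1-week array C (adjusted p up to 0.0971), and its 4-week call without naive array A or B or 4-week array C (adjusted p up to 0.0739).

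Msmo1, the oxidase that removes ring methyl groups, read 11.39, 11.16 and 11.73 in naive liver and 10.61, 10.30 and 10.38 at 1 week. Its 4-week arrays read 11.54, 11.69, 11.68 and 11.92 and its 6-week arrays 11.60, 11.30 and 11.61. The 1-week arrays stood apart from all others, by 0.55 log2 units or more. Msmo1 fell by 1.00 ± 0.18 (adjusted p = 0.0016) and rose by 1.28 ± 0.17 from 1 to 4 weeks and 1.07 ± 0.18 from 1 to 6 weeks (adjusted p = 0.00177 and 0.00464). These 3 calls, like those of Hmgcs1 in the same comparisons, held under each of the 22 alternatives run.

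Hsd17b7, the ketosteroid reductase that acts after Msmo1 and Nsdhl, read 10.72, 10.80 and 11.22 in naive liver and 9.91, 9.98 and 10.28 at 1 week. It fell by 0.86 ± 0.20 (adjusted p = 0.00616) and was -0.23 and -0.07 from naive later, not called. Dhcr7, the reductase of the last step, read 8.33, 7.82 and 7.91 in naive liver and 6.50, 7.61 and 6.89 at 1 week, and fell by 1.02 ± 0.26 (adjusted p = 0.0123). For both genes every 1-week array was below every naive array, and the call for Dhcr7 ended without naive array A or 1-week array A (adjusted p = 0.0536 and 0.0507). Sc5d, which desaturates the ring before that step, was -0.44, -0.65 and -0.55 from naive at the 3 times, not called.

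**Figure D2:**
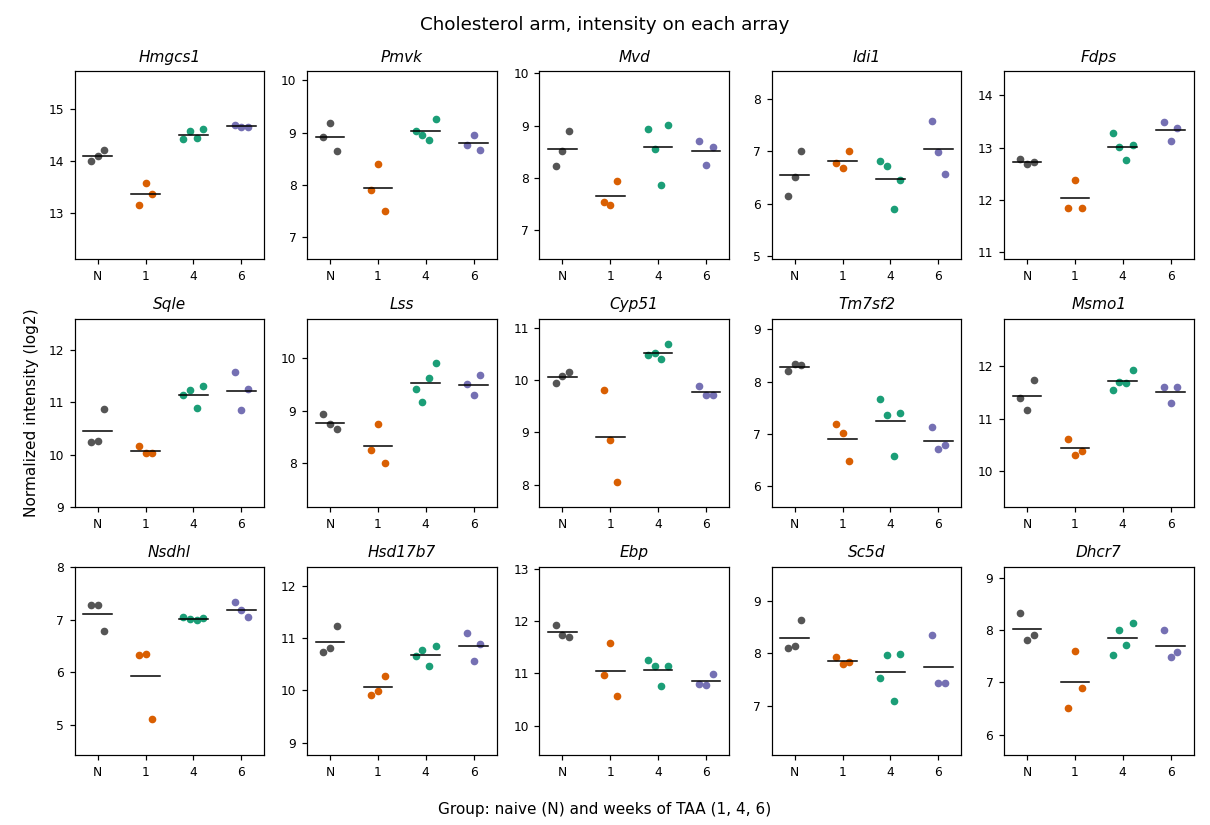
Normalized log2 intensity of the 15 cholesterol arm genes on each array (points) with the mean of each group (black bar), for naive liver (N) and 1, 4 and 6 weeks of TAA. Each panel spans 3.6 log2 units, and levels are not comparable between panels. Msmo1 has its lowest points at 1 week, while Tm7sf2 and Ebp stay below naive at each time.

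Acly, which splits citrate to acetyl-CoA and so feeds both arms, read 12.94, 12.27 and 11.63 in naive liver, 12.85, 13.29 and 12.60 at 1 week, a mean of 12.80 ± 0.19 (SD, n = 4) at 4 weeks and 13.23, 13.05 and 13.01 at 6 weeks. Its naive arrays spread over more than 1 log2 unit, with A among the TAA arrays and C lowest, and all 6-week arrays were above all naive ones. Acly rose by 0.81 ± 0.27 at 6 weeks (adjusted p = 0.0284). The call ended without naive array B or C or any 6-week array (adjusted p from 0.0517 to 0.152), without the detection filter (adjusted p = 0.0617) and under median scaling, where Acly was 0.30 (adjusted p = 0.394). Without naive array A it was called at 1 and 4 weeks too, at 0.96 and 0.85 (adjusted p = 0.0159 and 0.019).

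Acss2, which makes acetyl-CoA from acetate, read 13.02, 12.79 and 11.48 in naive liver and 11.12, 11.74 and 10.62 at 1 week. Naive array C was below 1-week array B, so the groups overlapped. Acss2 fell by 1.27 ± 0.34 (adjusted p = 0.0141), and the call ended without naive array A or B or 1-week array C (adjusted p = 0.066, 0.0625 and 0.0537). Without naive array C it was called lower at 4 and 6 weeks too, at -0.98 and -0.82. Without Acly and Acss2, which precede the branch between the arms, 1 of the other 8 fatty acid arm genes fell at 1 week and 0 were called at 6 weeks.

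Elovl5, the elongase of polyunsaturated chains, read 13.82, 13.57 and 13.28 in naive liver and 12.73, 13.08 and 12.11 at 1 week, without overlap. It fell by 0.92 ± 0.22 (adjusted p = 0.00888) and was -0.32 and -0.37 later, not called. Fasn, the fatty acid synthase itself, was dim, and its probe was detected on 2 of 4 arrays at 4 weeks. It read 6.07, 5.46 and 5.73 in naive liver and 4.95, 5.12, 4.99 and 5.38 at 4 weeks, a fall of 0.64 ± 0.22 (adjusted p = 0.0386), or -0.60 with undetected arrays at their lowest detected signal. Its groups did not overlap, and its call ended without naive array A or C or 4-week array A, B or C (adjusted p from 0.069 to 0.164). It also ended without background correction, where Fasn was -0.20, under median scaling, without the detection filter and in the authors' deposited value table (adjusted p from 0.0681 to 0.119).

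The remaining fatty acid arm genes were called in 0 of 6 comparisons. At 1 week Acaca, the carboxylase that makes malonyl-CoA, was -0.16 ± 0.28 from naive, the elongase Elovl6 -0.68 ± 0.30 and the desaturase Scd1 0.30 ± 0.20. Me1, the malic enzyme that supplies NADPH, was 0.01 ± 0.34. Among the desaturases of polyunsaturated chains, Fads1 was -0.36 ± 0.26 and Fads2 -0.41 ± 0.29. At 6 weeks Scd1 was 0.48 ± 0.20 from naive (adjusted p = 0.0654), and it was called in the fit of these 2 groups alone (adjusted p = 0.0428).

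**Figure D3:**
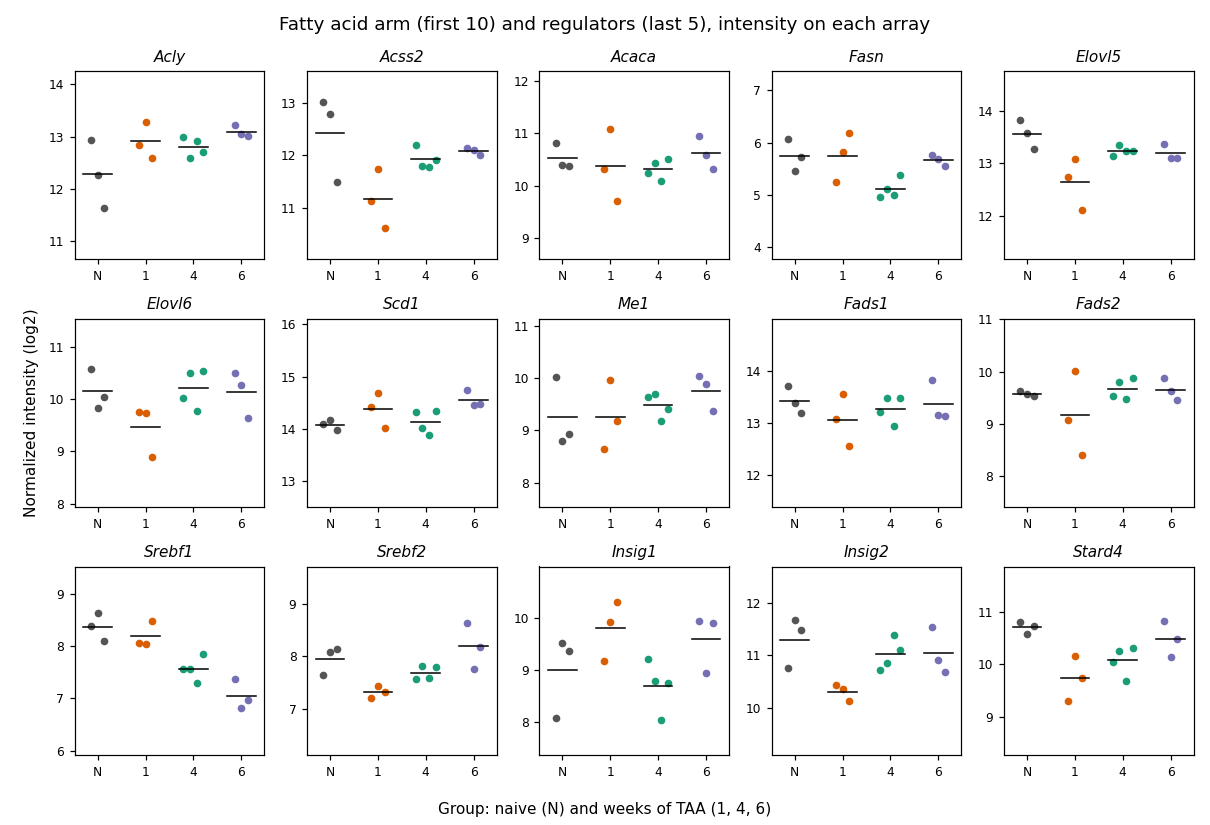
Normalized log2 intensity on each array (points) with group means (black bars) for the 10 fatty acid arm genes and the 5 regulators and sterol transfer genes, for naive liver (N) and 1, 4 and 6 weeks of TAA. Each panel spans 3.6 log2 units, and levels are not comparable between panels. The naive arrays of Acly, Acss2 and Me1 spread over more than 1 log2 unit, and Srebf1 is lowest at 6 weeks.

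The arms differed in how alike the arrays of a group were. The median within-group SD was 0.379 in the fatty acid arm, 0.281 in the cholesterol arm and 0.278 over all genes. Naive array A had the highest naive value in 9 of 10 fatty acid arm genes and in 4 of 15 cholesterol arm genes. The same array stood apart in genes of the circadian clock. Of 9 tested, 7 read more than 1 log2 unit from the mean of naive arrays B and C, 6 higher and 1 lower. Dbp, a clock output factor, read 12.25 on naive array A against 6.33 and 6.46, and Arntl, which encodes the clock activator BMAL1, read 5.46 against 7.40 and 7.59. The part of this in the values of the fatty acid arm was not tested. At 1 week array B was highest in 8 of 10 fatty acid arm genes and array C, the dimmest array, lowest in 8 of 10. In the cholesterol arm the same arrays were most often highest and lowest, B highest in 7 of 15 genes and C lowest in 7 of 15. The shares over all genes were not computed.

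The median of the cholesterol arm, relative to the naive mean of each gene, was -0.09, -0.04 and 0.09 on the naive arrays and -0.82, -0.51 and -0.88 on the 1-week arrays. It was 0.12, 0.05, -0.11 and 0.31 at 4 weeks and 0.17, -0.13 and -0.03 at 6 weeks. All 1-week arrays therefore lay below all others. The fatty acid arm gave 0.30, -0.03 and -0.20 on the naive arrays and -0.44, 0.28 and -0.84 on the 1-week arrays, which overlapped. Afterwards it gave -0.16, -0.01, -0.35 and 0.10 at 4 weeks and 0.37, 0.06 and -0.20 at 6 weeks. Taken array by array, the cholesterol arm minus the fatty acid arm was -0.39, -0.01 and 0.29 on the naive arrays and -0.38, -0.79 and -0.04 at 1 week, so this difference overlapped between the groups. A difference between the arms in the size of the 1-week change from naive is thus not resolved beyond the spread of the fatty acid arm. The cholesterol arm minus the fatty acid arm was 0.28, 0.06, 0.23 and 0.20 at 4 weeks, above every 1-week value. At 6 weeks it was -0.20, -0.18 and 0.17, which overlapped the 1-week values.

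**Figure D4:**
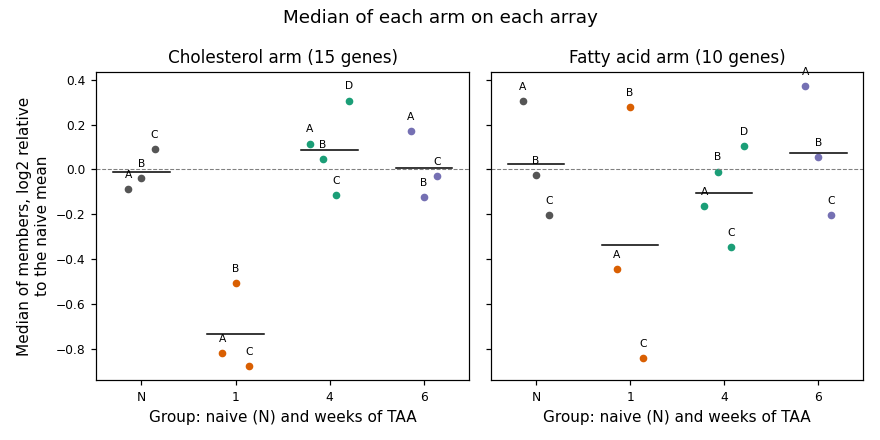
Median log2 intensity, relative to each gene's naive mean, of the 15 cholesterol arm genes (left) and the 10 fatty acid arm genes (right) on each lettered array, with the mean of each group as a bar. The 1-week cholesterol values, -0.88 to -0.51, are below all others, while the 1-week fatty acid values run from -0.84 to 0.28.

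Among the regulators 3 of 5 fell at 1 week, 2 at 4 weeks and 1 at 6 weeks, and 0 rose against naive, where 12.3%, 12.9% and 16.4% of all genes fell. Srebf1 read 8.38, 8.63 and 8.10 in naive liver, 8.05, 8.03 and 8.49 at 1 week, 7.55, 7.57, 7.29 and 7.84 at 4 weeks and 7.37, 6.81 and 6.97 at 6 weeks. Its 1-week arrays overlapped the naive ones, and every later array was below all of them. Srebf1 was -0.18 ± 0.21 from naive at 1 week (adjusted p = 0.573) and fell by 0.81 ± 0.20 at 4 weeks and 1.32 ± 0.21 at 6 weeks (adjusted p = 0.00767 and 0.000283). Both calls held under each of the 22 alternatives. Whether the probe reads the transcript for SREBP-1a, that for SREBP-1c or both was not tested.

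Srebf2 had the other order of weeks. It read 7.65, 8.08 and 8.13 in naive liver, 7.20, 7.43 and 7.32 at 1 week, 7.57, 7.81, 7.58 and 7.79 at 4 weeks and 8.64, 7.75 and 8.18 at 6 weeks. Its 1-week arrays were below all other arrays, and those at 6 weeks overlapped naive. Srebf2 fell by 0.64 ± 0.21 at 1 week (adjusted p = 0.0402) and rose by 0.87 ± 0.21 from 1 to 6 weeks (adjusted p = 0.0227), where Srebf1 fell by 1.14 ± 0.21 (adjusted p = 0.00666). The 1-week call of Srebf2 ended without naive array B or C, 1-week array A or C, or 4-week array B, C or D (adjusted p from 0.0507 to 0.134). It ended too under median scaling, without the detection filter, with the 2 groups alone and with the array set as a term (adjusted p = 0.065, 0.0604, 0.0758 and 0.113). From 1 to 6 weeks the call of Srebf2 ended without 1-week array A or 6-week array A or C (adjusted p from 0.0648 to 0.09). It ended too under median scaling, with the 2 groups alone and with the array set as a term (adjusted p = 0.0716, 0.123 and 0.0648).

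Stard4, a carrier that moves cholesterol between membranes, read 10.81, 10.58 and 10.72 in naive liver, 9.30, 10.15 and 9.74 at 1 week and 10.04, 10.25, 9.68 and 10.32 at 4 weeks. Neither TAA group overlapped naive. Stard4 fell by 0.97 ± 0.24 at 1 week (adjusted p = 0.00931), under each of the 22 alternatives, and by 0.63 ± 0.22 at 4 weeks (adjusted p = 0.0482). The 4-week call ended without any naive array, 4-week array A, B or C or 6-week array C (adjusted p up to 0.137), and without the detection filter (adjusted p = 0.0877). Insig2 read 10.75, 11.67 and 11.49 in naive liver and 10.43, 10.35 and 10.13 at 1 week and fell by 1.00 ± 0.27 (adjusted p = 0.0144), without overlap. Its call ended without naive array B or C (adjusted p = 0.0694 and 0.056) and with the array set as a term, at -0.87 (adjusted p = 0.147). Insig1 was 0.81 ± 0.41 from naive at 1 week (adjusted p = 0.16), with the largest within-group SD of the 30 genes, 0.601.

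For Sqle, Nsdhl, Insig1 and Insig2 the probes of 1 gene did not read alike. The probe with the highest mean was the one tested. Nsdhl, the dehydrogenase that removes the ring carboxyl group after Msmo1, read 7.28, 7.28 and 6.78 on this probe in naive liver, 6.34, 6.36 and 5.10 at 1 week and 7.34, 7.18 and 7.05 at 6 weeks. It fell by 1.18 ± 0.27 at 1 week (adjusted p = 0.00654), or by 0.93 with undetected 1-week array C at its lowest detected signal, and was 0.08 at 6 weeks. The 3 other Nsdhl probes were -1.33, -1.97 and -1.89 at 1 week, and -1.72, -1.86 and -1.70 at 6 weeks. All 4 probes were thus lower at 1 week, and at 6 weeks 3 were lower than naive and 1 near it.

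The second probe of Sqle read 6.72, 7.26 and 7.60 in naive liver, 6.30, 6.03 and 4.34 at 1 week, 7.94, 7.70, 7.76 and 8.20 at 4 weeks and 5.65, 5.26 and 5.04 at 6 weeks. It was called lower at 1 week, -1.64 (adjusted p = 0.00752), and at 6 weeks, -1.88 (adjusted p = 0.00171), where the tested probe of Sqle was higher. At 4 weeks the 2 Sqle probes read 0.71 and 0.69. With the mean of both probes Sqle was -0.55 from naive at 6 weeks.

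The further probes of Insig1 that passed the filter were -1.04 and -1.64 at 1 week, both called, against 0.81 on the tested probe. At 6 weeks they were -0.60 and -0.92, against 0.60 on the tested probe, none of them called. The second of them read 8.26, 8.28 and 8.18 in naive liver and 7.26, 7.21 and 5.34 at 1 week, with array C lowest. For Insig2 the further probes were -0.94 and -2.49 at 1 week and -0.51 and -2.30 at 6 weeks, while the tested probe was -0.26 from naive at 6 weeks. The sign for Insig1 at 1 and 6 weeks and for Sqle at 6 weeks therefore depended on the probe, as did the call for Nsdhl and Insig2 at 6 weeks. From 4 to 6 weeks the second Sqle probe was -2.58 and the further Nsdhl probes -1.80, -2.07 and -1.72, all called (adjusted p up to 0.00185). The tested probes of Sqle and Nsdhl were 0.08 and 0.17 in that comparison, and no further probe of Insig1 or Insig2 was called. Both probes of Me1 were called in 0 comparisons with naive, and 1 probe each of Acss2, Srebf1 and Insig1 did not pass the filter.

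**Figure D5:**
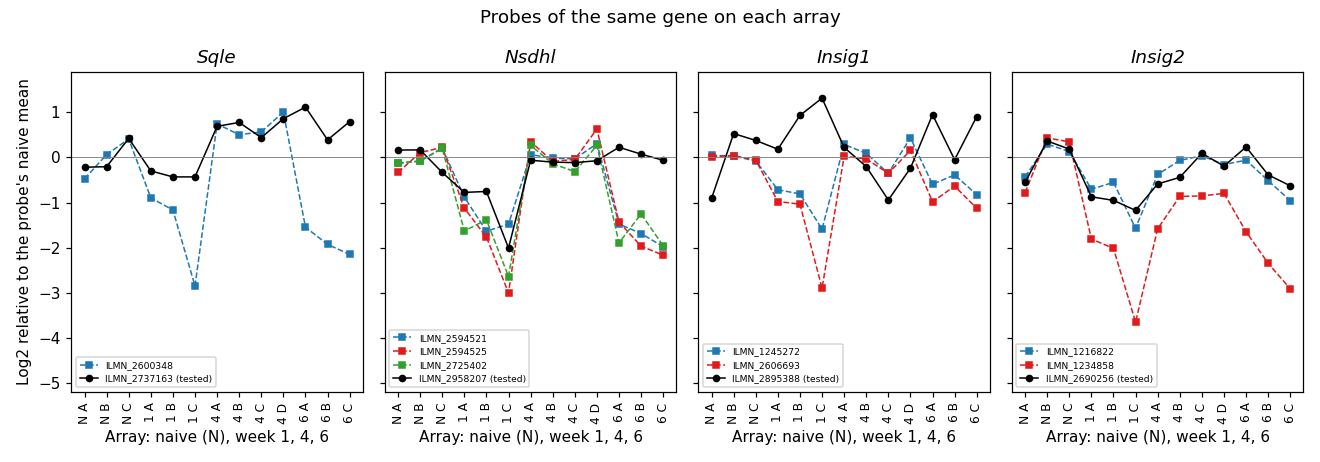
Log2 intensity relative to the probe's naive mean on each of the 13 arrays, for the probes of Sqle, Nsdhl, Insig1 and Insig2 that passed the filter, with the tested probe in black and solid and the others in colour and dashed. At 6 weeks the second Sqle probe and 3 Nsdhl probes fall near -1.7 to -1.9 in the mean, while the tested probes stay at 0.77 and 0.08.

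Other genes of the pathway followed no single course. Of 6 tested genes for SREBP processing and its partner factors, 1 fell at 1 week, 3 at 4 weeks and 2 at 6 weeks, and 0 rose. That is 16.7%, 50% and 33.3% called, against 25.6%, 28.2% and 38.8% of all genes. Without naive array A 0, 1 and 0 of the 6 were called, against 18.7%, 22.5% and 33% of all genes. Over all lists of other genes there were 53 calls against naive, of which 15 held under each of the 22 alternatives. Scap fell at all 3 times, by 0.82 ± 0.22, 0.90 ± 0.21 and 0.58 ± 0.22 (adjusted p = 0.0144, 0.00464 and 0.0477). Its 4-week call is among the 15. The 1-week call of Scap ended without naive array A or B or 1-week array A, and the 6-week call without naive array A or B, 4-week array A, C or D, or 6-week array B or C (adjusted p up to 0.149). Mlxipl, which encodes the glucose-responsive factor ChREBP, fell by 0.99 ± 0.35 at 4 weeks (adjusted p = 0.0481), a call that ended without any 1 naive array and without 4-week array A, C or D or 6-week array A or C (adjusted p up to 0.155). The coactivator gene Ppargc1b read 8.49, 6.49 and 6.63 in naive liver and fell by 1.42 ± 0.41 at 4 weeks (adjusted p = 0.0191). Without naive array A the change of Ppargc1b was -0.78, and it was not called (adjusted p = 0.0941), nor was it without 4-week array A (adjusted p = 0.0576). Nr1h3, the oxysterol receptor LXR alpha, fell by 0.44 ± 0.15 at 6 weeks (adjusted p = 0.0315), and its call ended without any 1 naive array or 6-week array A or C (adjusted p up to 0.0984).

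In sterol uptake and export, 2 of 6 tested genes fell at 1 week, 3 at 4 weeks and 3 at 6 weeks, and 0 rose, where 12.3%, 12.9% and 16.4% of all genes fell. Scarb1, the receptor for high-density lipoprotein, was dim, detected on 2 of 3 naive arrays and on 0 arrays at 1 and 6 weeks. It was at least 1.18-fold lower at 1 week and at least 1.32-fold lower at 6 weeks (adjusted p = 0.0235 and 0.00463). Under median scaling Scarb1 was -0.07 and 0.02, not called, and its 1-week call also ended without naive array B or C or 1-week array A or C (adjusted p up to 0.11). Abcg8, which exports sterol into bile, was -0.39 ± 0.32 at 1 week and fell by 1.73 ± 0.30 at 4 weeks and 1.39 ± 0.32 at 6 weeks (adjusted p = 0.394, 0.000707 and 0.00335), and both calls are among the 15. Lcat, which esterifies plasma cholesterol, fell by 0.65, 0.70 and 1.10 (adjusted p = 0.0303, 0.0136 and 0.000801). The 6-week call of Lcat is among the 15, and its earlier calls ended without naive array B or C, that at 1 week also without 1-week array A or C (adjusted p up to 0.109).

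Among 5 tested genes of citrate and NADPH supply, Pklr, the liver pyruvate kinase, fell at all 3 times, by 1.47, 0.93 and 1.55 (adjusted p = 0.00149, 0.0125 and 0.000485). Pklr was detected on 2 of 3 arrays at 1 week and at 6 weeks, with changes of -1.44 and -1.51 with undetected arrays at their lowest detected signal. Its smallest changes under the alternatives were -0.52, -0.35 and -0.54, and its 4-week call ended under median scaling (adjusted p = 0.0533). With Tkt and Taldo1, 1, 3 and 3 of the 5 were called, or 20%, 60% and 60%, against the same 25.6%, 28.2% and 38.8% of all genes. The pentose phosphate enzymes Tkt and Taldo1 rose at 4 weeks, by 0.77 and 0.57, and at 6 weeks, by 1.16 and 0.65 (adjusted p up to 0.0221). The call of Taldo1 at 4 weeks ended without naive array B or C or 4-week array A or C, and both its calls ended under median scaling (adjusted p up to 0.379). Of 18 tested genes of further elongation and triglyceride synthesis, 4 fell at 1 week, 3 rose and 3 fell at 4 weeks, and 1 rose and 5 fell at 6 weeks. That is 22.2%, 33.3% and 33.3% called, below or near the shares of all genes. The desaturase Scd2 rose by 2.26 ± 0.48 and 2.26 ± 0.52 at 4 and 6 weeks (adjusted p = 0.00317 and 0.00345), or by 2.03 at both with undetected naive arrays at their lowest detected signal. The elongation reductase Tecr fell by 1.14 ± 0.25 at 1 week and 1.43 ± 0.25 at 6 weeks (adjusted p = 0.00537 and 0.000616). Dgat2, which makes triglyceride, fell by 1.17 ± 0.21 at 1 week and 0.98 ± 0.20 at 4 weeks (adjusted p = 0.00142 and 0.00215), under each of the 22 alternatives. At 6 weeks the change of Dgat2 was -0.77 (adjusted p = 0.0101), and this call too held under each of them. Agpat2, an acyltransferase of glycerolipid synthesis, fell by 0.65 ± 0.21 at 1 week and 1.59 ± 0.21 at 6 weeks (adjusted p = 0.0357 and 7.18e-05). Its 1-week call ended without naive array B or C or 1-week array B or C (adjusted p up to 0.148). With the array set as a term, the calls at 1 week for Scarb1, Lcat, Tecr and Agpat2 ended, and so did those at 6 weeks for Scap, Nr1h3, Scarb1, Tkt, Taldo1, Scd2 and Tecr.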

How the data were processed

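The members and all lists were chosen with earlier results of these data known, so lists are described by counts and medians and carry no test. Per the file headers, the deposited raw table gives for every probe and array an average intensity without normalization, and beside it a detection p-value against the negative control beads. The submitters' processing notes name GenomeStudio, with no version. The authors also deposited a table of log2 values centred on each probe, whose normalization and centring are not stated. Across probes, its changes from naive correlated with those computed here at r = 0.998 (slope 0.906), which set its scale and direction. Its column medians were -0.000867, -0.000607 and -0.000975 for naive replicates 1 to 3 and -0.00176, -0.00116 and -0.000485 for the 1-week replicates. The 4-week replicates had -0.0007, 0.000287, 0.000198 and -0.000198, and the 6-week replicates 0.00115, 0.00134 and 3.67e-05.

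Intensities were background-corrected and quantile-normalized with neqc (limma 3.58.1, R 4.3.3, offset 16, controls inferred from detection). Probes were kept if detected (p under 0.01) on 3 arrays or more, and the probe with the highest mean represented a gene. One model with a mean per group was fitted with lmFit and eBayes, the moderated tests were two-sided, and p-values were adjusted by Benjamini and Hochberg over 8027 genes. Groups came from the column headings. Where the dimmer group had no array with a detected signal, the fold is a lower bound against the lowest detected signal. The procedure was tested on simulated data. For arrays, their number and the brightness over background limit the precision. All members are accounted for, and those called against naive are described in full. From each other list at most 4 called genes of largest change per comparison could be named. The 22 alternatives covered background correction, scaling, the detection filter, the probe rule, the samples fitted, the array set, the value table and leaving out each array.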

Additional observations from a re-analysis of the deposited data

Results flagged for a closer look

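The change from naive differed between weeks for 13 of the 30 genes, by the limma test of the difference itself, which is the comparison of the weeks with each other. Of all genes 8.81% were called between 1 and 4 weeks, 9.18% between 1 and 6 and 5.31% between 4 and 6. The share of all genes called in any of these comparisons was not computed. Between 1 and 4 weeks the log2 difference was 1.14 for Hmgcs1, 1.09 for Pmvk, 0.94 for Mvd and 0.99 for Fdps. Later in the pathway it was 1.08 for Sqle, 1.20 for Lss, 1.62 for Cyp51, 1.28 for Msmo1, 1.09 for Nsdhl, 0.62 for Hsd17b7 and 0.85 for Dhcr7. All 11 belong to the cholesterol arm and were higher at 4 weeks. Tm7sf2 and Ebp, which were below naive at each time, differed by 0.36 and 0.04 and were not called.

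Between 1 and 6 weeks the difference was 1.30 for Hmgcs1, 0.86 for Pmvk, 1.30 for Fdps, 1.16 for Sqle and 1.17 for Lss. It was 1.07 for Msmo1, 1.26 for Nsdhl and 0.79 for Hsd17b7. The regulators differed in opposite directions, 0.87 for Srebf2 and -1.14 for Srebf1. For Sqle and Nsdhl the mean of all probes gave 0.46 and 0.29 between 1 and 6 weeks, not called.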

How the results depend on the processing

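Of 53 calls among the members in the 6 comparisons, 16 held in all 22 alternatives, 37 ended in at least 1 and 2 turned sign. Of 127 values not called 34 were called with the same sign in some alternative, 3 were called with the other sign, and 58 had the other sign in at least 1. With the fit of both groups alone or the array set as a term, the 1-week count of the cholesterol arm was 6 and that of the fatty acid arm 0, while without Acly and Acss2 the latter was 1. The 1-week median of the cholesterol arm was -0.63 in the value table, with or without the replicate block. The 4-week count was 3 in the cholesterol arm under median scaling. It was 0 in the fatty acid arm without background correction, without the detection filter and in the value table without or with the block. These last settings called 28.4%, 12.6%, 28.2% and 23.4% of all genes, in that order. The fatty acid arm median at 4 weeks was -0.43 under median scaling. At 6 weeks the cholesterol arm count was 3 under median scaling and 0 with the array set, with medians of -0.23 and 0.26. The fatty acid arm count at 6 weeks was 2 without background correction, with both groups alone and in the value table without or with the block. These settings called 38.2%, 40.3%, 37.7% and 32.6% of all genes, in that order. The count was 0 without the detection filter, with the array set and without Acly and Acss2. Without the detection filter 18% of all genes were called. Between 4 weeks and 1 week 7 members were called with both groups alone, and between 6 weeks and 1 week 6. The array set term left 1-week array A alone between 4 weeks and 1 week. Fewer members, and fewer of all genes, were called with that term than without it. Of all genes, both groups alone called 4.65% between 4 weeks and 1 week and 2.11% between 6 weeks and 1 week. Between 6 and 4 weeks the count was 3 under median scaling and 2 with the mean of probes or both groups alone. These settings called 10.7%, 7.3% and 9.49% of all genes, in that order. Leaving out single arrays gave 8 to 11 calls in the cholesterol arm at 1 week, 2 to 5 at 4 weeks and 3 to 6 at 6 weeks. In the fatty acid arm it gave 1 to 3, 0 to 1 and 0 to 2. Of all genes these fits called 17.2% to 27.9%, 19.9% to 31.9% and 30.7% to 42.8%. Between 6 and 4 weeks 0 to 1 members were called, against 1.32% to 8.15% of all genes.

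Where a call was involved, signs turned for Hmgcs1 at 4 weeks against naive (-0.26 under median scaling) and for Scarb1 at 6 weeks (0.0206 under median scaling), and with the mean of probes for Sqle (-0.55 against naive and -1.25 against 4 weeks) and Nsdhl (-1.30 and -1.36) at 6 weeks. Among values not called in either setting, Cyp51 at 6 weeks went from -0.29 to 1.06 with the array set and Insig1 at 1 week from 0.81 to -0.62 with the mean of probes. The cause was not tested. Median scaling moved the median of all genes to 0.20 at 1 week, -0.01 at 4 weeks and 0.26 at 6 weeks against naive, and to -0.16 from 1 to 4 and 0.21 from 4 to 6 weeks. Relative to these, Hmgcs1 at 4 weeks was still below 0. Replicate numbers stand only in the value table. Same-numbered samples correlated with r from -0.34 to 0.24 over 18 pairs, so the numbers were not taken as pairs. Of 180 member results in that table, 53 were called without the replicate block and 47 with it. The block ended 7, among them Srebf2 at 1 week and from 1 to 6 weeks, Mvd at 1 week and Stard4 at 4 weeks, and gained Elovl6 at 1 week. The array set term for 6 weeks against naive and against 4 weeks, and the alternatives for genes outside the 33, were added after the data were seen. Dim probes such as those of Fasn, Nsdhl and Scarb1 are limited by background.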

Other observations

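Nutritional state and time of day move lipid synthesis genes, and neither is given in the sources used here. Of 8 tested genes that fasting raises in liver, 2 fell at 1 week, 1 rose and 2 fell at 4 weeks, and 2 rose and 2 fell at 6 weeks. That is 25%, 37.5% and 50% called, against 25.6%, 28.2% and 38.8% of all genes. Pdk4, the kinase that blocks pyruvate entry to the citrate cycle, rose by 2.07 ± 0.52 at 4 weeks and 3.30 ± 0.55 at 6 weeks (adjusted p = 0.00807 and 0.000383). Pck1, of gluconeogenesis, was detected on 1 of 4 arrays at 4 weeks and 1 of 3 at 6 weeks and fell by 1.63 ± 0.38 and 1.24 ± 0.41 (adjusted p = 0.00561 and 0.0261), or by 1.39 and 1.11 with undetected arrays at their lowest detected signal. Its 6-week call ended without naive array A or C or 6-week array A or B (adjusted p up to 0.0981). The lipase inhibitor gene Angptl4 fell by 1.55 ± 0.49 at 1 week (adjusted p = 0.0316), and Igfbp1 rose by 1.49 ± 0.54 at 6 weeks (adjusted p = 0.0412). Igfbp1 was detected on 1 of 3 naive arrays, and its change was 1.38 with undetected arrays at their lowest detected signal. The call of Angptl4 ended without naive array B or C or 1-week array A or C, and that of Igfbp1 without naive array A or B, 1-week array A, 4-week array B or any 6-week array (adjusted p up to 0.108 and 0.166). Ppargc1a fell by 0.77 at 1 week and by 1.11 at 4 weeks (adjusted p = 0.0216 and 0.00136), or by 0.56 and 1.08 with undetected arrays at their lowest detected signal. Its 1-week call ended without naive array A or C or 1-week array C (adjusted p up to 0.096). At 6 weeks, where it was undetected, Ppargc1a was at least 1.99-fold lower (adjusted p = 0.00011).

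Of 9 tested clock genes, 2 rose and 1 fell at 1 week, 1 fell at 4 weeks, and 2 rose and 1 fell at 6 weeks. That is 33.3%, 11.1% and 33.3% called, near or below the shares of all genes. Without naive array A, which stood apart in these genes, 5 rose and 1 fell at 1 week, 2 rose at 4 weeks, and 4 rose and 1 fell at 6 weeks, with 18.7%, 22.5% and 33% of all genes called. Nr1d1, the clock repressor REV-ERB alpha, fell by 1.87 ± 0.45, 1.41 ± 0.42 and 1.63 ± 0.45 (adjusted p = 0.00826, 0.0215 and 0.0107). At 1 week Nr1d1 was detected on 2 of 3 arrays, and its change was -1.77 with the undetected array at its lowest detected signal. It read 8.76 on naive array A against 6.79 and 6.54 on B and C, and without A its changes were -1.17, -0.72 and -0.93 (adjusted p = 0.0186, 0.0953 and 0.0326). The 4-week call of Nr1d1 ended also without 4-week array A (adjusted p = 0.0591). Per2 rose by 1.18 at 1 week and 1.21 at 6 weeks (adjusted p = 0.0493 and 0.0311), and its calls ended without naive array B or C and without several of the other arrays (adjusted p up to 0.197). Clock rose by 0.81 and 0.74 in the same comparisons (adjusted p = 0.00732 and 0.00716). With the array set as a term, the calls at 1 week for Angptl4 and Ppargc1a and at 6 weeks for Pdk4, Pck1, Igfbp1, Ppargc1a, Clock, Per2 and Nr1d1 ended. The part of either list in the changes of lipid synthesis genes was not tested.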
